A study of Mus musculus with 14 samples.

Results

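Recurrent interchromosomal contacts of cranial neural crest cells (CNCCs) are pairs of DNA fragments on different chromosomes that promoter capture Hi-C (PCHi-C) scored again and again across samples. A pair was taken as recurrent when its ends lay on 2 different chromosomes among chromosomes 1 to 19 and its CHiCAGO score was 5 or more in at least 6 of 12 libraries, and pairs of the Wnt1 and Ddn baits on chromosome 15 were left out. The rule found 880 recurrent pairs among 39859 interchromosomal pairs listed in 1 or more of these libraries. Of the rest, 36202 were listed in 1 library only and 2777 in 2 to 5. The pairs were thus selected on their CHiCAGO scores, and these scores are given over the 12 libraries as a description, with no test of recurrence.

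In PCHi-C, chromatin is crosslinked, cut with the restriction enzyme HindIII and religated, and ligation products that contain a promoter fragment, called the bait, are captured and sequenced with the fragment joined to it, called the other end. The study had 7 conditions with 2 libraries each. Wild-type cells came from Wnt1::Cre;ROSA-RFP mouse embryos and were sorted for RFP: at E10.5 from the maxillary (Mx), mandibular (Md) and frontonasal (FNP) processes and from the second pharyngeal arch (PA2), and at E12.5 and E14.5 from the developing pinna. Knockout cells came from PA2 of E10.5 Hoxa2EGFP/EGFP embryos, in which EGFP replaces Hoxa2 on both alleles, and were sorted for GFP. All mice were kept on a mixed C57Bl/6J and CD1 background. FNP, Mx and Md cells are Hox-negative, and wild-type PA2 and pinna cells express Hoxa2. Cre was driven by the Wnt1 promoter in premigratory neural crest progenitors, so RFP marked their progeny, whereas GFP marked cells in which the Hoxa2 locus was active. The knockout libraries therefore differed from the wild-type ones in Hoxa2, in the transgenes, in the reporter used for sorting and possibly in the share of each parental background, and these cannot be told apart. No gene of a marker list could be read as expression here, since the lists hold contacts only.

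Md replicate 1 and E12.5 pinna replicate 2 stood apart and took no part in the rule: they listed 129794 and 263166 interchromosomal pairs, 40.0% and 52.7% of all their pairs, whereas the other 12 libraries listed between 3173 and 7406, or 2.30% to 4.82%. These 12 libraries listed between 119370 and 190715 pairs in all, with a lowest score of 5, and no read counts, so that their depth is unknown. The CHiCAGO score rises as a pair has more reads than the background model of its library predicts. Where a library did not list a pair, its score is written here as 0, although its true score may lie anywhere under 5. The Wnt1 and Ddn baits told the labelled genotypes apart, which differ in the Wnt1::Cre transgene as well as in Hoxa2. In every wild-type library they formed 385 to 728 pairs with chromosome 11 and 11 to 20 with chromosome 6. In both knockout libraries they formed 0 such pairs. Leaving these baits out removed 404 pairs from the recurrent set.

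Chromosomes occupy separate territories in the nucleus, and most contacts that ligation captures lie within a chromosome. Known associations between chromosomes include those of olfactory receptor genes, histone gene clusters and ribosomal DNA around the nucleolus. A pair of fragments can also be joined on paper without meeting in the nucleus, where reads of a repeat or a processed pseudogene are placed at its source gene, or where a stretch of DNA lies elsewhere in the animals than in the reference genome. The sequences at the ends of 2 blocks of recurrent pairs, and those of 2 pairs whose fragments share sequence, are therefore shown before the values.

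The fragment ends of the strongest pairs of these 2 blocks follow in GRCm38, plus strand, 5′ to 3′, with the HindIII site in capitals. The Acbd7 and Rpp38 bait carried the highest scores, and the Nthl1 and Tsc2 bait led a group of neighbouring baits that met an intron of Dock3.
Acbd7 and Rpp38 bait, chr2:3331980-3332059: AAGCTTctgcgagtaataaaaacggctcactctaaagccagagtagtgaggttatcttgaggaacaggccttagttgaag
Its other end, between genes, chr9:82561256-82561335: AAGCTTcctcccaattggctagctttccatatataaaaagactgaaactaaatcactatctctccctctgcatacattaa
Nthl1 and Tsc2 bait, in an Nthl1 intron, chr17:24634571-24634650: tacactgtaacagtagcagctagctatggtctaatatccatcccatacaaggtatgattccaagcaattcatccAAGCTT
Its other end, in a Dock3 intron, chr9:107083616-107083695: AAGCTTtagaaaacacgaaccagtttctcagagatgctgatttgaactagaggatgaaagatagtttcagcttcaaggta
In neither of these pairs did the fragments share an exact stretch of 31 bases or more on either strand.

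In 111 recurrent pairs they did, and in 6 of these a shared stretch held a base outside soft-masked repeats. Pairs of the latter kind are shown here. The exact stretch shared by both fragments is in capitals, with 15 bases on each side. A bait of chromosome 19 at Cyp2c70 holds the processed pseudogene AC170187.1, and its other end holds coding sequence of Nr1d2, a nuclear receptor of the circadian clock. The bait of Taf10, a subunit of the transcription factor TFIID, was paired with the processed pseudogene Gm4799.
AC170187.1, plus strand, chr19:40191664-40191794: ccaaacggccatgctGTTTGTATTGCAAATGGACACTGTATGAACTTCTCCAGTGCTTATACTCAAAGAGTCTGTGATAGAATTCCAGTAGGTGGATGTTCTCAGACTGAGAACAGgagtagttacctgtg
Nr1d2, minus strand, chr14:18214899-18215029: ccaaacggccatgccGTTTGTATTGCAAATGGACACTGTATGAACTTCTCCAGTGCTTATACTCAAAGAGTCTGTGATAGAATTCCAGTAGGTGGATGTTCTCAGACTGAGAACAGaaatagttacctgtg
Taf10, plus strand, chr7:105743815-105743938: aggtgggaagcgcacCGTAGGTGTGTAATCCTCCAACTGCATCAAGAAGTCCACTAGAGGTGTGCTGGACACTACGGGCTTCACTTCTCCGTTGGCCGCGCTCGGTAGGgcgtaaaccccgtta
Gm4799, minus strand, chr10:82954622-82954745: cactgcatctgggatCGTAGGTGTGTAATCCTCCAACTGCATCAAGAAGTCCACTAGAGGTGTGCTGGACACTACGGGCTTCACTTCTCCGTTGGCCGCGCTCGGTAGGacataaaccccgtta
The shared stretches are 101 and 94 bases long and lie outside soft-masked repeats.

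The 880 pairs joined 381 bait fragments, 372 of them with an annotated transcription start site, to 721 other-end fragments on 124 combinations of chromosomes. Both ends of all 1092 fragments lay on HindIII sites of the reference. Pairs whose baits and whose other ends each lay within 1 Mb were grouped, which gave 300 blocks. In 224 blocks there was a single pair, 51 held 2 to 4 pairs, 16 held 5 to 19, and 9 held 20 or more. These 9 blocks held 418 pairs, 47.5% of the total. Recurrent pairs thus described a few large regions and many isolated fragments, and pairs of a block share their bait or neighbouring fragments and are not independent. Of the baits, 275 were in 1 recurrent pair, as were 653 of the other ends.

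The mean score over the 12 libraries ranged from 2.99 to 853, with a median of 17.96. In each library the median score of the recurrent pairs it listed was between 20.7 and 35.96, against 5.66 to 6.46 for its other interchromosomal pairs. A pair was listed in all 12 libraries in 139 cases, spread over 38 blocks, and 123 of these were listed in all 14. At the edge of the rule, the 193 pairs listed in 6 libraries had a median score of 16.3 where listed (interquartile range 10.2 to 26.6), and the 252 pairs listed in 5 had 13.1 (9.63 to 21.6).

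The 2 libraries left out of the rule gave a measure that did not enter the choice. By name their lists are merged ones, and whether they hold reads of libraries used by the rule is unknown. Md replicate 1 listed 613 of the 880 pairs, 69.7% (95% Wilson interval 66.5% to 72.6%), and E12.5 pinna replicate 2 listed 513, 58.3% (55.0% to 61.5%). The intervals cover counting error only, and pairs of 1 block are not independent. Pairs listed in a single one of the 12 libraries were found again in 0.577% and 0.536% of cases, pairs of 2 libraries in 9.84% and 7.38%, and pairs of 3 to 5 in 21.1% and 19.4%. The share then rose to 52.3% and 42.3% for 6 to 8 libraries, 83.7% and 68.8% for 9 to 11, and 98.6% and 89.9% for all 12. The threshold of 6 libraries thus lay on a gradient and not at a step.

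**Figure D1:**
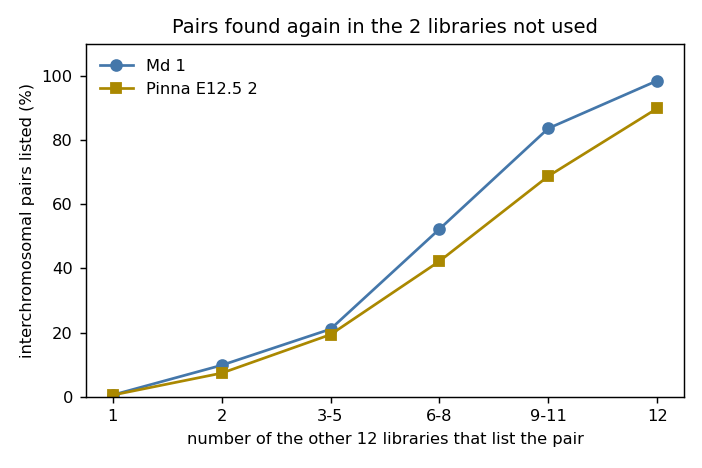
Share (%) of interchromosomal pairs listed in Md replicate 1 (circles) and in E12.5 pinna replicate 2 (squares), by the number of the other 12 libraries that list the pair. The share climbed from under 1% for pairs of 1 library to 98.6% and 89.9% for pairs of all 12.

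Recurrent pairs listed per library varied between 466 and 745. FNP listed 634 and 670, Mx 686 and 705, Md replicate 2 745, wild-type PA2 609 and 661, and the knockout 616 and 653. Among the pinna libraries, E12.5 replicate 1 listed 488, and the E14.5 replicates listed 466 and 709. As means, Hox-negative cells listed 688 ± 41.2 (SD, n = 5), wild-type PA2 635 ± 36.8 (SD, n = 2), pinna 554 ± 134 (SD, n = 3) and knockout PA2 634.5 ± 26.2 (SD, n = 2), so that the groups overlapped and the spread was widest in the pinna. E14.5 pinna replicate 1 listed the fewest recurrent pairs and 137 of the 300 blocks, although its 149490 listed pairs of any kind lay close to the median of 149773.

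**Figure D2:**
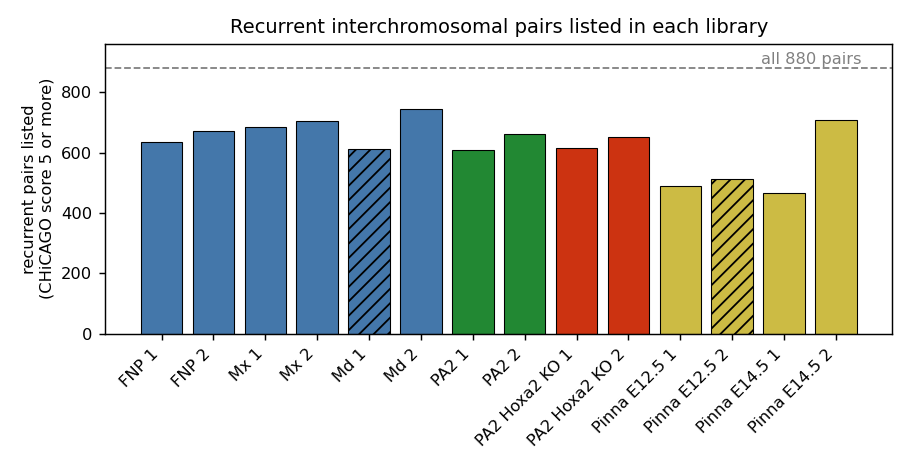
Number of the 880 recurrent pairs listed in each library, with bars for Hox-negative (blue), wild-type PA2 (green), knockout PA2 (red) and pinna (yellow) libraries. Hatched bars are the 2 libraries not used to choose the pairs, and the dashed line marks 880. Every library listed more than 460 pairs and none listed all.

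In the values by condition that follow, Md stands for its replicate 2 and E12.5 pinna for its replicate 1 unless another is named. The largest block started from 1 bait, chr2:3331981-3340597, which holds the start sites of Acbd7, an acyl-CoA-binding domain gene, and of Rpp38, a subunit of ribonuclease P. It was paired with 156 fragments of chr9:81684768-82858576, a region that contains Mei4, a gene of meiotic recombination, and Irak1bp1. Its strongest pair scored 763 and 646 in FNP, 937 and 778 in Mx, 1186 in Md, 672 and 784 in wild-type PA2, 501 in E12.5 pinna, 694 and 1183 in E14.5 pinna, and 1122 and 971 in the knockout. The libraries left out gave 816 and 826. The pair was thus strong in every library, and 8 of the 10 pairs with the highest mean score were formed with this bait or the bait of Kcnab3. Baits of chr9:81863382-83447577, which reaches beyond that region, met the Acbd7 fragment in turn in 5 further pairs.

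Scores of the Acbd7 block fell off on both sides of 1 fragment. Their median was 368 within 25 kb of the strongest fragment, 87.1 at 25 to 50 kb, 39.4 at 50 to 100 kb, 16.5 at 100 to 200 kb, 13.4 at 200 to 500 kb and 9.43 beyond. The block reached 876 kb to one side of the strongest fragment and 296 kb to the other. A rank correlation of distance with score was -0.80 over its 156 fragments, which share a bait and are given as a description.

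The next blocks had the same form. The bait of Kcnab3, a potassium channel subunit, and Rnf227 on chromosome 11 (chr11:69329193-69341496) was paired with 48 fragments across 434 kb of chromosome 8, where carboxylesterase genes of the Ces1 family lie. Its strongest pair scored 230.4 and 802 in FNP, 510.1 and 593 in Mx, 1005 in Md, 268 and 325 in wild-type PA2, 185 in E12.5 pinna, 116 and 781 in E14.5 pinna, and 671 and 662 in the knockout. It was present in every library, lowest in E14.5 pinna replicate 1 and highest in Md replicate 2.

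The bait of Grhpr, an enzyme of glyoxylate metabolism, on chromosome 4 (chr4:44976324-44991510) was paired with 38 fragments of chr10:89438507-89874184, which spans Nr1h4, the bile acid receptor, and Slc17a8, a vesicular glutamate transporter. Its strongest pair scored 315 and 291 in FNP, 207 and 269 in Mx, 295 in Md, 182 and 355 in wild-type PA2, 138 in E12.5 pinna, 228 and 315 in E14.5 pinna, and 121 and 137 in the knockout. It was listed in every library, and among the 12 libraries its lowest score was in knockout replicate 1.

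The bait of Mad2l1, a protein of the spindle checkpoint, on chromosome 6 (chr6:66534905-66540307) was paired with 28 fragments of chr11:46421556-46754724, a region with Timd2, Havcr1 and Med7. Its strongest pair scored 237 and 506 in FNP, 349 and 419.9 in Mx, 588 in Md, 310.3 and 368 in wild-type PA2, 0 in E12.5 pinna, 0 and 753 in E14.5 pinna, and 126 and 112 in the knockout. The pair was at 0 in E12.5 pinna replicate 1 and E14.5 pinna replicate 1 and reached its highest score in the other E14.5 library. Esp8, a gene of a secreted peptide of exocrine glands, on chromosome 17 (chr17:40516711-40520881) was paired with 24 fragments of chr7:39879566-40081400, and its strongest pair scored 242 and 21.4 in FNP, 204 and 20.9 in Mx, 83.5 in Md, 229 and 151 in wild-type PA2, 89.3 in E12.5 pinna, 174 and 164 in E14.5 pinna, and 430.1 and 620.2 in the knockout. FNP and Mx replicate 2 were low and replicate 1 high in this block, the knockout libraries were highest, and E12.5 pinna replicate 2 did not list it.

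Blocks of 1 bait with several other ends were 34 in number and held 436 pairs. Smaller ones started from Prdx2, a peroxiredoxin, with 11 fragments around Dut on chromosome 2, from Eif5, a translation initiation factor, with 9 fragments of chr10:82238275-82521147, and from Defb19, a beta-defensin, with 7 fragments in introns of the cadherin gene Cdh12 (chr15:21016205-21053248). The Defb19 pair scored 115 and 362 in FNP, 100.2 and 280.3 in Mx, 290.2 in Md, 125 and 177 in wild-type PA2, 135 in E12.5 pinna, 105 and 157 in E14.5 pinna, and 97.7 and 112 in the knockout. It was listed in every library, and both Mx and both FNP replicates differed among themselves by more than the wild-type PA2 replicates.

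A different form of block had several neighbouring baits and 1 or a few other ends. In the largest, 17 baits of chr17:24422900-24739637 met 2 adjacent fragments in an intron of Dock3, a guanine nucleotide exchange factor (chr9:107083617-107088051), in 30 pairs. The strongest bait held the start sites of Nthl1, a DNA repair glycosylase, and Tsc2, tuberin. This pair scored 362 and 502 in FNP, 327 and 508 in Mx, 708 in Md, 260.3 and 428 in wild-type PA2, 337 in E12.5 pinna, 206 and 272 in E14.5 pinna, and 161 and 192 in the knockout. It was listed in every library, and both knockout values lay below all wild-type ones.

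In the second such block, 11 baits of chr4:155829076-156202777, led by Acap3, met 5 fragments of Matr3, which encodes an RNA-binding protein of the nuclear matrix, on chromosome 18. The strongest pair scored 79.3 and 109.8 in FNP, 104 and 62.5 in Mx, 77.1 in Md, 30.6 and 38.5 in wild-type PA2, 81 in E12.5 pinna, 97 and 82.6 in E14.5 pinna, and 175 and 207 in the knockout. Wild-type PA2 was lowest and the knockout highest. In the next, 10 baits of chr15:84719579-85583817, led by Fam118a, met 3 fragments of Ccdc117 on chromosome 11 (chr11:5525999-5537395), with scores of 151 and 304 in FNP, 252 and 266 in Mx, 323 in Md, 180.4 and 155 in wild-type PA2, 217 in E12.5 pinna, 180.2 and 0 in E14.5 pinna, and 177 and 199 in the knockout. E14.5 pinna replicate 2 did not list this pair, whereas E14.5 pinna replicate 1 did.

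Another 6 baits of chr6:18026416-18849345, led by Asz1, a germ cell gene, met 2 fragments at the end of Srfbp1 on chromosome 18, which encodes a cofactor of serum response factor. The strongest pair scored 296 and 347 in FNP, 390.2 and 329 in Mx, 523 in Md, 414 and 421 in wild-type PA2, 166 in E12.5 pinna, 187 and 369.9 in E14.5 pinna, and 98.3 and 193 in the knockout, so it was listed throughout and lowest in a knockout library. In these blocks the score fell with the distance of a bait from the strongest bait, as it did for other ends above. For Dock3 it was 355 at the Nthl1 bait, a median of 140.1 at 25 to 50 kb, 22.7 at 50 to 100 kb and 19.2 at 100 to 200 kb. The rank correlation of distance with score was between -0.69 and -0.93 in the 9 largest blocks, over 10 to 156 fragments each.

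**Figure D3:**
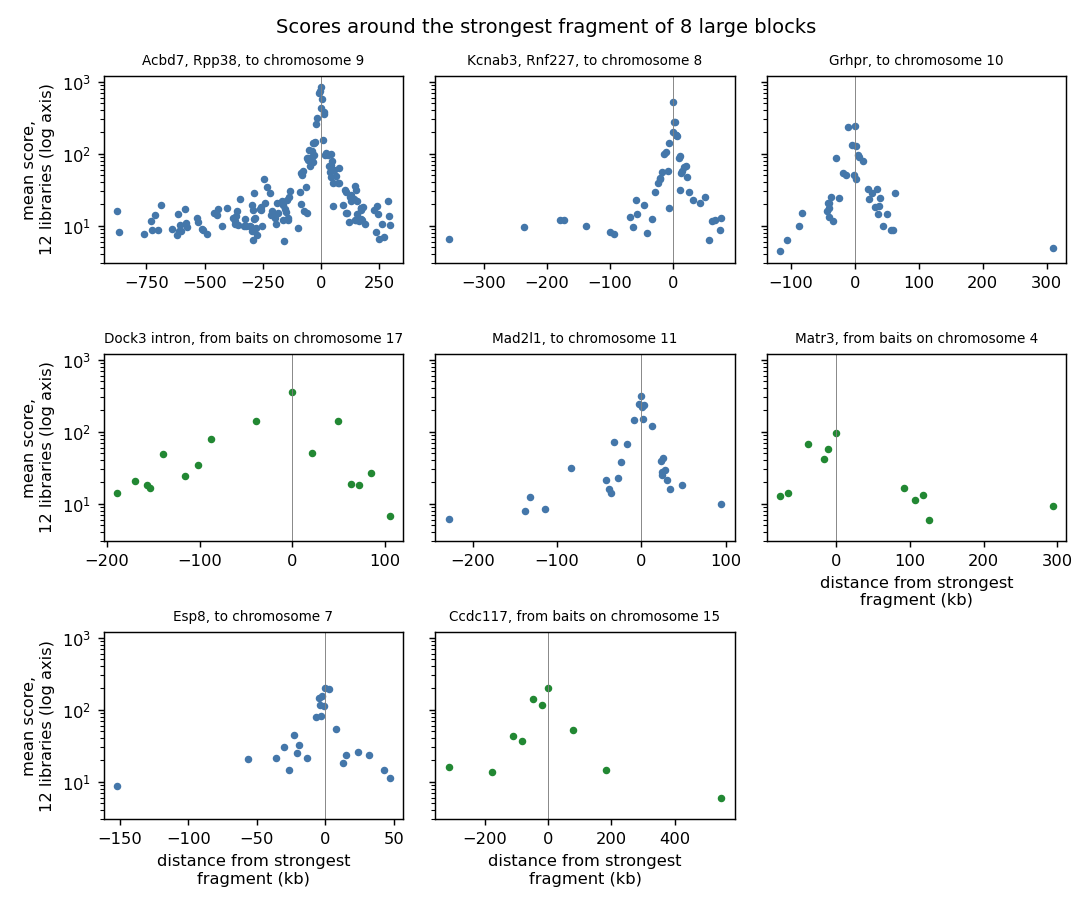
Mean CHiCAGO score over 12 libraries (log axis) against the distance in kb from the strongest fragment in 8 of the 9 blocks of 20 or more pairs. Blue points are other ends of a single bait, and green points are baits of a single other end (the one with the highest score). In each block scores dropped within about 100 kb, from 853 for the strongest Acbd7 pair and from 355 for the strongest Dock3 pair.

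The other ends of the second form often lay on exons. Matr3 has 12 HindIII fragments with exon sequence and 5 without, and 5 of the former and 0 of the latter were in recurrent pairs. In Ccdc117 these were 3 of 4 and 0 of 2, in Srfbp1 2 of 6 and 0 of 3, in Exog, a mitochondrial endonuclease, 3 of 5 and 0 of 2, and in Hmgxb4 4 of 9 and 0 of 6. Dock3, the largest case, was an exception, with 0 of 30 fragments with exons and 2 of 73 without. Over 30 combinations of a gene and a block of several baits, 44 of 307 exon fragments were in recurrent pairs (14.3%) and 10 of 1529 others (0.654%).

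Where a gene was met by 1 bait, contacts spread more evenly: 119 of 1330 exon fragments (8.95%) and 154 of 9318 others (1.65%). These were counted over 143 combinations of a gene and a block, so that a gene met in several blocks entered once for each. Gm20388, a gene with 986 fragments without exons, entered more than once, which lowers the second share. Slc17a8 had 8 of 8 and 6 of 6, and Mei4 3 of 9 and 23 of 92. Psat1, an enzyme of serine synthesis, met a bait in an Nrg1 intron (chr8:32475502-32480532) with 5 of its 7 exon fragments and 0 of 6 others. Fragment length and capture were not taken into account. Over all recurrent pairs, 54.7% of the other ends inside protein-coding genes held a coding-gene exon, against 37.4% for pairs of 1 library and 56.7% for pairs of 2 to 5.

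Several baits with many recurrent partners had almost no contact on their own chromosome. The Acbd7 bait was listed with 0 or 1 fragment of chromosome 2 in each of the 12 libraries, while it was listed with 85 to 141 of its recurrent partners on chromosome 9. Grhpr had 0 or 1 and Eif5 between 0 and 2 fragments on the same chromosome, against 22 to 35 and 5 to 9 recurrent partners. Over all 22171 baits the median was 3.5 same-chromosome fragments per library, and over the 381 recurrent baits 4.83. How many of all baits were as poor was not counted. Defb19 had 0 to 5 and Esp8 0 to 7. Some other hubs were not poor in such contacts: Kcnab3 had 9 to 39, Mad2l1 10 to 28, and the Hjurp and Trpm8 bait 72 to 331.

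Shared sequence was compared between recurrent and rare pairs. An exact stretch of 31 bases or more was shared by both fragments in 111 pairs, 12.6% (95% Wilson interval 10.6% to 14.97%), against 13.0% of the pairs of 1 library and 13.1% of those of 2 to 5. Without the 9 largest blocks it was 15.8%, and among the strongest pairs of the 300 blocks 17.7%. A stretch of 50 bases was shared by 2.73% of recurrent pairs, by 4.11% without the largest blocks and by 4.0% of the strongest pairs, against 2.47% of pairs of 1 library. The other ends had a median of 26.3% soft-masked bases, against 28.0% for pairs of 1 library, and 93.0% against 93.9% of their 31-base words were unique in the genome. For the strongest pairs of the blocks these values were 30.7% and 90.3%, so that for shared stretches and soft-masked bases the order of recurrent and rare pairs depended on whether each block was counted once. Counting stretches with a base outside soft-masked repeats, 6 recurrent pairs shared one (0.682%), against 21 (0.0580%) and 14 (0.504%).

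The neighbourhood of the fragments differed more. A non-repeat word of 31 bases from one fragment lay within 100 kb of the partner in 50 recurrent pairs (5.68%), against 0.754% of pairs of 1 library and 4.47% of pairs of 2 to 5. Among the strongest pairs of the 300 blocks it was 37, or 12.3%. Some of these 37, named after their values were seen, joined a pseudogene or a relative to its gene. The processed pseudogene Gm18180, in the Spata3 bait on chromosome 1, met Zfp617, a zinc finger gene on chromosome 8, and the pair scored 129 and 234 in FNP, 189.6 and 266 in Mx, 201 in Md, 183 and 147 in wild-type PA2, 154 in E12.5 pinna, 61.2 and 458 in E14.5 pinna, and 209.6 and 260.2 in the knockout. AC170187.1 and Nr1d2, shown above, scored 216 and 171 in FNP, 207 and 218 in Mx, 189 in Md, 156 and 157 in wild-type PA2, 125 in E12.5 pinna, 135 and 282 in E14.5 pinna, and 21 and 38 in the knockout. Both were listed in all 12 libraries, the former highest in E14.5 pinna replicate 2 and the latter lowest in the knockout.

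The pair of Taf10 and Gm4799, also shown above, was weaker, at 25.4 and 33.7 in FNP, 19.7 and 59.1 in Mx, 50.7 in Md and 9.8 and 51.4 in wild-type PA2. It was also listed in E14.5 pinna replicate 2, but in no other pinna library and in neither knockout library. Further pairs of this kind were Gad1-ps with Gad1, which encodes a glutamate decarboxylase, Prdx2-rs3 with Prdx2, Hsp90ab1, a heat shock protein, with Gm13498, Zfp110 with Zfp369, and a histone gene bait of chromosome 3 with Hist1h2ae of chromosome 13. The strongest pairs of these had mean scores between 10.2 for the histone genes and 43.0 for Prdx2-rs3.

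For the largest blocks no such word was found in the reference genome. In none of the 25 blocks of 5 or more pairs did a word of the strongest pair lie near the partner. Copies that the reference genome lacks could not be found by this search or by the alignment that follows. An alignment of the strongest fragment of each side against 1 Mb around the other (blastn, repeats masked) found nothing in either direction for Acbd7, Kcnab3, Grhpr, Nthl1 and Dock3, Mad2l1, Acap3 and Matr3, Fam118a and Ccdc117, Asz1 and Srfbp1, Eif5 and Defb19. It found up to 811 bases at 81.1% identity for Prdx2 and Dut, 305 bases at 87.2% for Kcnk1 and Exog, and 541 bases at 72.1% for Esp8. Shorter alignments were 203 bases at 69.0% for Eddm3b and Hmgxb4 and 130 bases at 78.5% for Klhl42. For the Gm22203 bait, whose block of fewer pairs is described below, the bait fragment aligned over 568 bases at 73.4%. Its other end aligned over 340 bases at 72.4%.

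Few recurrent pairs lay close to a gap of the assembly. Of the baits of recurrent pairs, 3.18% lay within 100 kb of a gap of 1000 bases or more, against 4.53% for pairs of 1 library, and of the other ends 1.59% against 1.22%. Without the 9 largest blocks the shares were 5.63% for baits and 3.03% for other ends. A bait in the first Mb of the assembled chromosome was found in 19.7% of recurrent pairs against 5.24%, but in 3.68% once the 9 largest blocks were left out. The Acbd7 bait, at the start of chromosome 2, accounts for 156 pairs. Whether the DNA of the animals follows the order of the reference at these places was not tested.

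Developmental transcription factors outside the Hox clusters had a share of recurrent baits close to that of all baits. None of 40 Hox cluster baits, 24 clustered protocadherin baits and 7 globin baits was recurrent. These numbers are too small to set 0 apart from the share of all baits. Of 209 baits of other developmental transcription factors, 3 were recurrent (1.44%), those of Foxa3, Isl1 and Sox11, with 1 pair each, against 381 of all 22171 baits (1.72%). Of the gene families known for clustering between chromosomes, olfactory and vomeronasal receptors had 16 of 1002 baits (1.60%), close to the share of all baits, and histone genes 2 of 35 (5.71%), both in 1 block. Zinc finger genes gave 11 of 372 baits (2.96%), ribosomal protein genes 2 of 103 (1.94%) and small nuclear, transfer and ribosomal RNA genes 4 of 134 (2.99%). Among keratin and epidermal genes the single bait was Defb19. Tcf21, a transcription factor of mesenchyme that was not in these lists, was a bait in 7 recurrent pairs.

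Among blocks of few pairs, the strongest was a bait with the snRNA gene Gm22203 (chr7:38159301-38177748) and its other end chr4:31898832-31912611, which scored 935 and 481 in FNP, 306 and 517 in Mx, 716 in Md, 593 and 480.2 in wild-type PA2, 152 in E12.5 pinna, 77.8 and 405 in E14.5 pinna, and 508 and 658 in the knockout. The snRNA gene Gm23970 (chr2:20279629-20288706) and an intron of the glutamate receptor gene Grm7 (chr6:110962176-110963247) scored 306 and 303 in FNP, 255 and 248 in Mx, 479 in Md, 233 and 286 in wild-type PA2, 301 in E12.5 pinna, 75.8 and 304 in E14.5 pinna, and 187 and 161 in the knockout. Both were listed in all 14 libraries, and in both E14.5 pinna replicate 1 was lowest.

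Presence was often a matter of the single library. Of 61 blocks whose strongest pair averaged 50 or more where listed, 30 were listed in all 12 libraries and 31 were at 0 in 1 or more. In 16 of the 61, replicates of a condition disagreed fully, 0 in one and 50 or more in the other. This happened 12 times in E14.5 pinna, 5 times in FNP, 2 times in Mx, 1 time in wild-type PA2 and 0 times in the knockout. The Hjurp and Trpm8 bait with chromosome 16 scored 286 in FNP replicate 1 and 0 in replicate 2, 154 and 60.6 in Mx, 57.5 and 0 in Md replicates 1 and 2, 278 and 164 in wild-type PA2, 43.5 and 0 in E12.5 pinna replicates 1 and 2, and 0 in E14.5 pinna and the knockout.

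**Figure D4:**
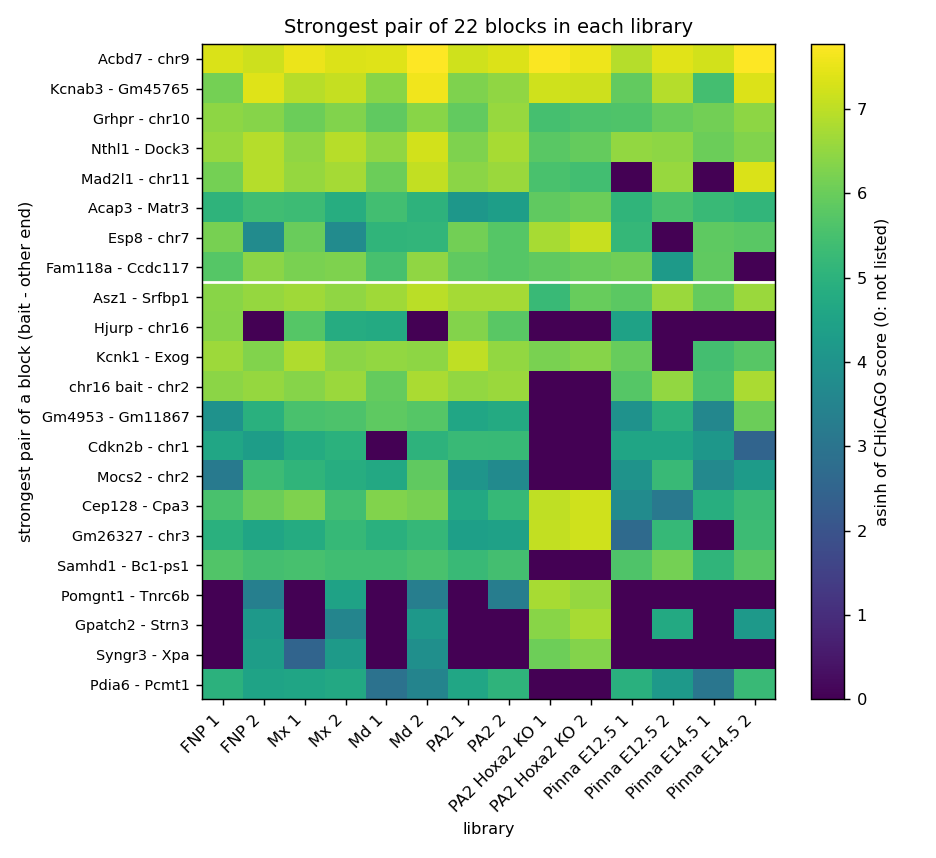
The asinh-transformed CHiCAGO score (colour) of the strongest pair of 22 blocks (rows) in the 14 libraries (columns), with 0 for an unlisted pair. The 8 rows above the white line are blocks of 20 or more pairs, and the 14 below were chosen after their values were seen because the text describes them. Rows such as chr16 bait - chr2 and Samhd1 - Bc1-ps1 are at 0 in both knockout libraries and listed in all 12 wild-type libraries.

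The libraries differed in which recurrent pairs were strong. Over the 880 pairs, Pearson's r of the asinh scores between replicates of a condition was between 0.258 and 0.742 with a median of 0.367, and between libraries of different conditions between 0.200 and 0.557 with a median of 0.343. The knockout replicates had r = 0.742, while each had r between 0.200 and 0.349 with wild-type libraries. FNP replicates had 0.279 and E14.5 pinna replicates 0.258. No wild-type library was most like its own replicate: FNP replicate 2 was most like Md replicate 2 (0.557), Mx replicate 1 most like Md replicate 1 (0.519) and E14.5 pinna replicate 2 most like E12.5 pinna replicate 2 (0.486). These r describe scores that share baits and blocks and carry no test. The knockout was the sole condition whose replicates stood out together. This was not particular to the recurrent pairs. Over 90977 same-chromosome pairs listed in 6 or more libraries, the knockout replicates had r = 0.596, and 0.110 to 0.234 with wild-type libraries. Over those pairs, 3 of 12 wild-type libraries were most like their own replicate.

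**Figure D5:**
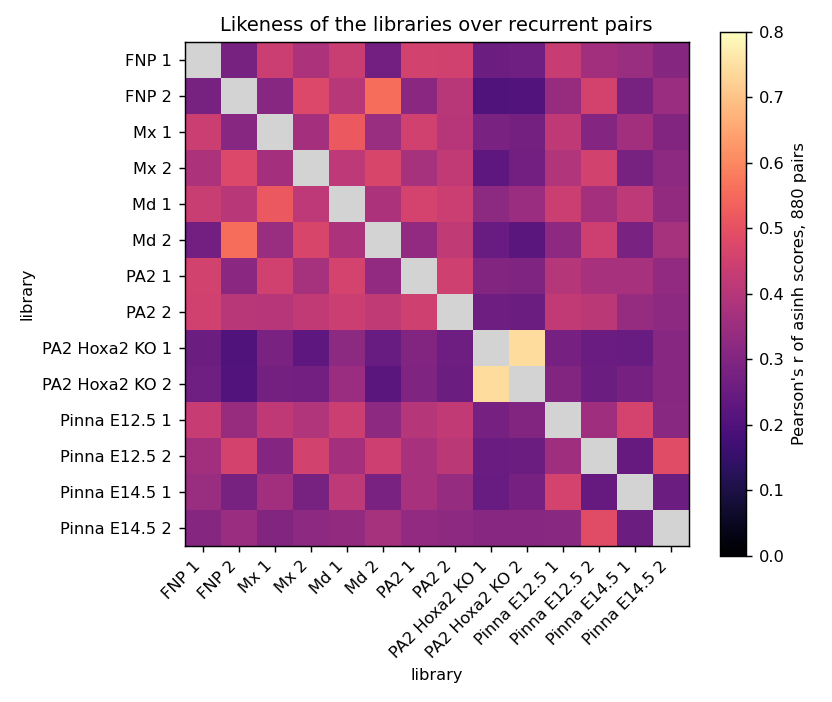
Pearson's r (colour) of asinh-transformed scores over the 880 recurrent pairs between each 2 of the 14 libraries, with the diagonal left grey. The brightest field is that of both knockout libraries (0.742), and wild-type replicates are no brighter than fields between conditions.

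Differences between conditions were tested with limma on asinh of the score, which acts like a logarithm on large scores and keeps 0 at 0. The fit covered 144892 pairs of any kind listed in at least 4 of the 12 libraries, with Benjamini-Hochberg adjustment over all of them, and it contains all 880 recurrent pairs. Pairs of the knockout comparisons had to be listed in 6 libraries to be recurrent, so a pair could be absent from both knockout libraries but not be found in them alone, and the split of directions there is shaped by the choice of pairs. The comparisons share libraries.

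In knockout PA2, 32 recurrent pairs differed from wild-type PA2, 3.64% of 880, against 2.12% of all pairs tested. Of these, 9 were higher (1.02%, against 0.11% of all pairs) and 23 lower (2.61%, against 2.01%). Relative to all wild-type libraries, 56 differed (6.36%, against 4.32% of all pairs), 11 of them higher (1.25%, against 0.156%) and 45 lower (5.11%, against 4.17%). The 45 lower pairs lay in 26 blocks and the 11 higher ones in 11. The median difference over the recurrent pairs was 0.19 on the asinh scale, against -0.40 over all pairs tested, and in the comparison with wild-type PA2 0.09 against -0.12. Scores of all wild-type libraries and of both knockout libraries did not overlap for 82 recurrent pairs higher in the knockout (9.32%, against 3.9% of all pairs) and 24 lower ones (2.73%, against 4.16%). The knockout libraries listed the fewest pairs of any kind, 119370 and 128042, against 137768 or more in wild-type libraries of the fit. Their interchromosomal share was the highest, 4.12% and 4.82%, against at most 3.88%. All pairs tested include same-chromosome pairs. Whether recurrent pairs differed in the knockout from other interchromosomal pairs was not tested.

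The 5 largest differences from all wild-type libraries were 3 losses and 2 gains. A bait of chromosome 16 with no annotated start site and a fragment of chromosome 2 scored between 132 and 443 in the 10 wild-type libraries with a median of 343, and 0 in both knockout libraries. The difference was -6.39 on the asinh scale (SE 0.227, limma adjusted p = 7.3e-09). The neighbouring fragment scored 121 to 504 with the same bait and again 0 in the knockout (-6.15, SE 0.274, limma adjusted p = 7.0e-08). In Md replicate 1 and E12.5 pinna replicate 2, which were not in the fit, the first of these pairs scored 191 and 339.6.

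Samhd1, which encodes a dNTP hydrolase, and the RNA gene Bc1-ps1 on chromosome 7 scored 80.8 to 155 in wild-type libraries with a median of 120.2, 110.1 and 232 in the libraries outside the fit, and 0 in both knockout libraries (-5.47, SE 0.137, limma adjusted p = 3.1e-10). The gains were a bait of Pomgnt1 and Rad54l with an intron of Tnrc6b, at 428 and 347 in the knockout and 0 to 43.7 in wild-type libraries (5.20, SE 1.10, limma adjusted p = 0.021), and a bait of Gpatch2 and Spata17 with Strn3, at 301 and 433 against 0 to 33.2 (4.97, SE 1.27, limma adjusted p = 0.048). E12.5 pinna replicate 2, outside the fit, scored 55.8 for the latter. In all 5 pairs the knockout and wild-type scores did not overlap within the fit.

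Next in size were Gm4953 with Gm11867, Syngr3 and Zfp598 with Xpa, a DNA repair gene, the cell cycle inhibitor Cdkn2b with a region of chromosome 1, and Pdia6 with Pcmt1. Cdkn2b scored 6.04 to 97.7 in the wild-type libraries of the fit and 0 in Md replicate 1. Syngr3 and Zfp598 scored 212 and 281 with Xpa in the knockout and 0 in both wild-type PA2 libraries (6.19, SE 1.11, limma adjusted p = 0.0062), which was the third largest difference between them, after both fragments of the chromosome 16 bait and before Samhd1 and Cdkn2b. Of 163 recurrent pairs listed in all 10 wild-type libraries, 11 were listed in neither knockout library (6.75%, against 11.2% of all 23010 such pairs). The difference between these shares was not tested.

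Other pairs were present in both genotypes with a large difference in score, 2 of which were chosen after their values were seen. A bait of Cep128 and Tshr with Cpa3, a mast cell protease gene, scored 556 and 681 in the knockout and 21.2 to 261 in the wild-type libraries of the fit (1.79, SE 0.321, limma adjusted p = 0.0065). The snRNA gene Gm26327 and its partner on chromosome 3 scored 578 and 676 against 0 to 102, which did not pass the threshold (2.98, SE 0.854, limma adjusted p = 0.074). The count of 56 was 36 or 37 without FNP replicate 2, Mx replicate 2 or Md replicate 2. Without a knockout replicate it was 25 or 30, where the remaining knockout library is assumed to vary like the other groups. With the 4 PA2 libraries alone the count of 32 became 151.

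Wild-type PA2 and pinna libraries, which express Hoxa2, were compared with FNP, Mx and Md. Of the recurrent pairs, 10 differed (1.14%, against 0.836% of all pairs tested), 0 of them higher (against 0.127% of all pairs) and 10 lower (1.14%, against 0.709%), and 157 had an unadjusted p below 0.05 (17.8%, against 12.7% of all pairs). The median difference was -0.54 against -0.05 over all pairs, and the pinna libraries listed the fewest recurrent pairs. A lower call rests on wild-type PA2 and pinna libraries together, and these could go opposite ways. For Acbd7 with chr9:82717512-82718104, called lower, wild-type PA2 scored 55.9 and 54.1, above the Hox-negative 11.8 to 26.2. All pinna libraries of the fit scored 0 there. A bait of Ctdspl2 and Mageb3 with Gm13859, a pseudogene on chromosome 6, scored 9.47 to 50.6 in the 5 Hox-negative libraries, 0 in all 5 Hoxa2-expressing ones, and 10.1 and 15.9 in the knockout (-3.55, SE 0.366, limma adjusted p = 0.0036). This pair was among those described above in which non-repeat words of 31 bases from one fragment lay within 100 kb of the partner. Outside the fit it scored 39.8 in Md replicate 1 and 0 in E12.5 pinna replicate 2.

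The next pairs were Itga2, an integrin gene, with chromosome 2 (17.96 to 46.7 in Hox-negative libraries, 10.8 in 1 PA2 library and 0 in the other 4), Fam216b with Arhgef28, Cdv3 with chromosome 4, and Acbd7 with a fragment in Mei4. Their differences were between -3.07 and -3.26. For Fam216b and Arhgef28 and for the Mei4 fragment, Md replicate 1 scored 0, unlike the Hox-negative libraries of the fit, and the knockout scored 29.3 and 19.6, and 25.6 and 31.9. The knockout scored 0 and 0 for Itga2, and 6.46 and 0 for Cdv3, so it did not side with 1 group throughout. E12.5 pinna replicate 2, also outside the fit, scored 13.8 for Cdv3, within the Hox-negative range of 6.08 to 21.8, and 9.98 for the Mei4 fragment, just under the lowest Hox-negative score of 10.2. The count rose to 51 without E14.5 pinna replicate 2, to 24 without PA2 replicate 2, to 20 without E12.5 pinna replicate 1 and to 16 without FNP replicate 1. It was 0 in a limma fit that left out the knockout libraries and gave wild-type PA2 and pinna 1 common mean. In that fit 131 recurrent pairs had an unadjusted p below 0.05 (14.9%, against 10.1% of all pairs).

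Between pinna and wild-type PA2, 7 recurrent pairs differed (0.795%, against 0.62% of all pairs tested), 2 higher in the pinna (0.227%, against 0.162% of all pairs) and 5 lower (0.5682%, against 0.458%). Acbd7 and a single fragment of its region, chr9:82717512-82718104, scored 55.9 and 54.1 in wild-type PA2 and 0 in the 3 pinna libraries and in E12.5 pinna replicate 2 (-4.70, SE 0.268, limma adjusted p = 7.7e-05), whereas the block as a whole was present in all of them.

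Kcnk1, a potassium channel gene, with Exog scored 558 and 332 in wild-type PA2 and 192, 118 and 156 in the pinna (-1.04, SE 0.181, limma adjusted p = 0.019), and a neighbouring Exog fragment changed the same way (-1.57, SE 0.277, limma adjusted p = 0.021). Bricd5 with Dock3 scored 22.7 and 30.2 in wild-type PA2 and 0 in the pinna (-3.96, SE 0.732, limma adjusted p = 0.029). Acap3 with Matr3, at 30.6 and 38.5 in wild-type PA2 and 80.98 to 96.99 in the pinna, rose (0.92, SE 0.148, limma adjusted p = 0.012), and Lmod1, a muscle gene, with chromosome 5 fell by 0.96 (SE 0.174, limma adjusted p = 0.026). Since Acap3 with Matr3 scored 62.5 to 109.8 in Hox-negative libraries, wild-type PA2 was the low group. The count was 36 without E14.5 pinna replicate 2, 16 without PA2 replicate 2, 15 without E12.5 pinna replicate 1, and 0 in a limma fit of these groups alone, with 46 at an unadjusted p below 0.05 (5.23%, against 9.84% of all pairs).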

How the data were processed

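PCHi-C was measured in 14 libraries. Reads had been aligned by the authors with HiCUP (GRCm38/mm10), and pairs of HindIII fragments were scored by CHiCAGO. The authors deposited for each library a list of pairs with their CHiCAGO score, a weighted negative log p-value against a background fitted within that library. The deposited scores start at 5, and strong scores depend on the depth and background of their own library, which are unknown. By name, the lists of E12.5 pinna replicate 2 and Md replicate 1 are merged ones.

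Libraries were grouped by their titles, and nothing there says whether replicates came from separate litters, so p-values measure the spread between these libraries. The recurrent pairs and the gene lists were chosen with earlier results of these data known. Named pairs were the 10 baits, other ends and pairs with the most pairs or highest scores, and the 5 largest differences past an adjusted p of 0.05 in each comparison, beside genes of the lists. Other pairs, and those shown as sequence, were named after their values were seen. The results of 1 bait and a sequence are not reported here.

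Genes came from GENCODE vM21 and sequence from RefSeq GRCm38. Comparisons used limma 3.58.1 in R 4.3.3 (lmFit, eBayes with a trend) with 1 mean each for Hox-negative, wild-type PA2, pinna and knockout libraries. Scores with many zeros depart from the model, so each call is given beside its scores. The fit was tested on simulated data. Shared words of 31 bases were counted with Python 3.11.15 and NumPy 2.4.6, and alignments made with blastn 2.17.0. Shares over pairs have Wilson intervals. Alternatives were other thresholds, filters, scales and fits, and each library left out.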

Additional observations from a re-analysis of the deposited data

Results flagged for a closer look

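Of 20 sets of scores examined within the 10 wild-type libraries, 1 held a library far from the rest. The strongest pair of Fam118a with Ccdc117 scored 0 in E14.5 pinna replicate 2 and between 151 and 323 in the other 9 libraries of the fit. The gap to the nearest library was 0.468 of the whole range. Chance alone gives such a library in about 1 of 20 sets. In E12.5 pinna replicate 2, which was not in the fit, the pair scored 34.1.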

How the results depend on the processing

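Recurrent pairs numbered 1511 with 4 libraries required and 546 with 8, and 742 to 834 when a library was left out. At a score of 10 or more, 61.4% of the 880 pairs were found again in Md replicate 1 and 49.4% in E12.5 pinna replicate 2. Both fragments shared a stretch of 20 bases in 24.8%, of 50 bases in 2.73% and a 31-base stretch with a base outside repeats in 0.682% of pairs.

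Counts of differing pairs were not stable, and the cause was not tested. For Hoxa2-expressing against Hox-negative libraries, 10 became 0 with the compared groups alone and 1 mean for each side. It became 19 with 1 mean for each of 7 conditions, 18 with all 14 libraries and 7 to 51 when a library was left out. For knockout against wild-type PA2, 32 became 20 with scores capped at 20, 12 with listed or not in place of the score, 18 without a variance trend, 151 with the compared groups alone, 21 with all 14 libraries and 23 to 26 without a library. For pinna against PA2, 7 became 3, 2, 2 and 0 under the first 4 of these settings in the same order, 12 with 7 means and 8 to 36 without a library. For knockout against all wild-type, 56 became 33, 18 and 24 under the first 3, 37 with 7 means and 25 to 70 without a library. The other settings kept each count within 1.5 times.

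Libraries with the same replicate number did not deviate together (correlations of 0.00129 to 0.0312 over 10 combinations), so the numbers were not taken as pairs. With the replicate number as a block the counts were 8, 39, 9 and 61. Over the recurrent pairs, 11 of 12 wild-type libraries were most like a library of another condition with their own number. For same-chromosome pairs listed in 6 or more libraries the same held for 8 of 12. This is a hint from the data and not from the design.

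Depth is unknown, so a score of 0 can stand for a contact that was not sampled.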
